A study of Rattus norvegicus with 3 samples.

Results

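The genes described here are those of the hypoxia-inducible factors, the oxygen-sensing enzymes that control them and some of their best known targets, as read in rat medullary thick ascending limb (mTAL), the salt-reabsorbing tubule segment of the outer medulla. They were taken as every probe set whose only gene symbol in the platform annotation was Hif1a, Epas1, Arnt, Egln1, Egln3, Vhl, Vegfa, Adm, Bnip3 or Angptl4. This gave 13 probe sets for 10 genes, out of 20826 probe sets with 1 gene symbol. Epas1, Egln1 and Vegfa had more than 1 probe set, and the other 7 genes had 1 each. The study profiled 3 samples of mTAL, all of 1 group, on Affymetrix arrays. The animals were male Sprague-Dawley rats of 7 to 8 weeks. All had received heparin (250 u) and furosemide (1 mg), a loop diuretic that blocks salt uptake by this segment, 30 min before they were killed. After a perfusion of 10 ml, the segment was prepared from outer medulla by digestion with collagenase (1 mg/ml) and hyaluronidase (0.5 mg/ml). The digestion lasted 60 min in 95% oxygen with 5% carbon dioxide and was followed by a gradient of 33.3% Percoll. No tissue kept at another oxygen level and no untreated tissue was profiled, so the signals have no control to be compared with. The labels do not say if each sample was a different rat or a pool. The p-values cover the spread among the 3 samples alone, and that spread may be technical.

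Hypoxia-inducible factors are pairs of an oxygen-regulated alpha subunit, encoded by Hif1a or Epas1 (the HIF-2 alpha subunit), and a stable beta subunit, encoded by Arnt. When oxygen is plentiful, prolyl hydroxylases of the Egln family mark the alpha subunit, the von Hippel-Lindau protein (Vhl) binds it within a ubiquitin ligase, and it is degraded. When oxygen is scarce the alpha subunit persists, joins the beta subunit and binds short DNA elements at its targets. This control acts mainly on the protein, which arrays do not measure. The outer medulla is known for its low oxygen tension, and the thick limb there consumes much oxygen for salt transport.

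Each value is the linear signal of a probe set, and means stand with the SD of the 3 arrays (n = 3 for each). The arrays shared 1 scale, and their number limits the precision of every value. All 14 markers of the thick ascending limb were detected, where 46.0% of all genes were. Also detected were 4 of 4 thin limb, 6 of 11 endothelial and 4 of 12 principal cell markers. Of the markers of red blood cells 1 of 3 was detected, of leukocytes 2 of 16, and of fibroblasts and mural cells 1 of 13. The preparations differed in the signals of markers of other cell types. The summed signal of 19 proximal tubule markers was 8389, 27758 and 83530 on replicates 1, 2 and 3, and all 19 were higher on replicate 3 than on replicate 1. The summed signal of 11 endothelial markers was 16629, 28555 and 26024, and that of 14 thick limb markers 271866, 264606 and 248143. Of the proximal tubule markers 3 were detected and 4 lay below the cutoff on every array. No cell type marker had a signal of 0. In such bulk samples, fewer cells of a type and less RNA per cell cannot be told apart.

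Detection was read against genes known from other tissues, such as brain, muscle and pancreas. An array's cutoff was the 95th percentile of 69 such genes and lay at a signal of 575, 579 and 548 on replicates 1, 2 and 3. By limma, one-sided with Benjamini-Hochberg adjustment over all 20826 probe sets, 9 of the 13 probe sets were called above the cutoff, or 69.2%. Of all probe sets 37.7% were called. By genes, 8 of the 10 had a called probe set, against 46.0% of 14217 genes on the array. Read by its highest probe set alone, a gene was called for 8 of the 10, against 47.0% of all genes. Both alpha subunits, all 3 oxygen-sensing genes and the targets Vegfa, Bnip3 and Angptl4 were detected. Arnt and Adm were not. The median of log2 signal minus cutoff was 2.25 over the 13 probe sets and -0.42 over all probe sets. The 10 genes were listed with earlier results of these data known, and levels of different probe sets are not comparable, so these shares describe the list and no more.

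**Figure D1:**
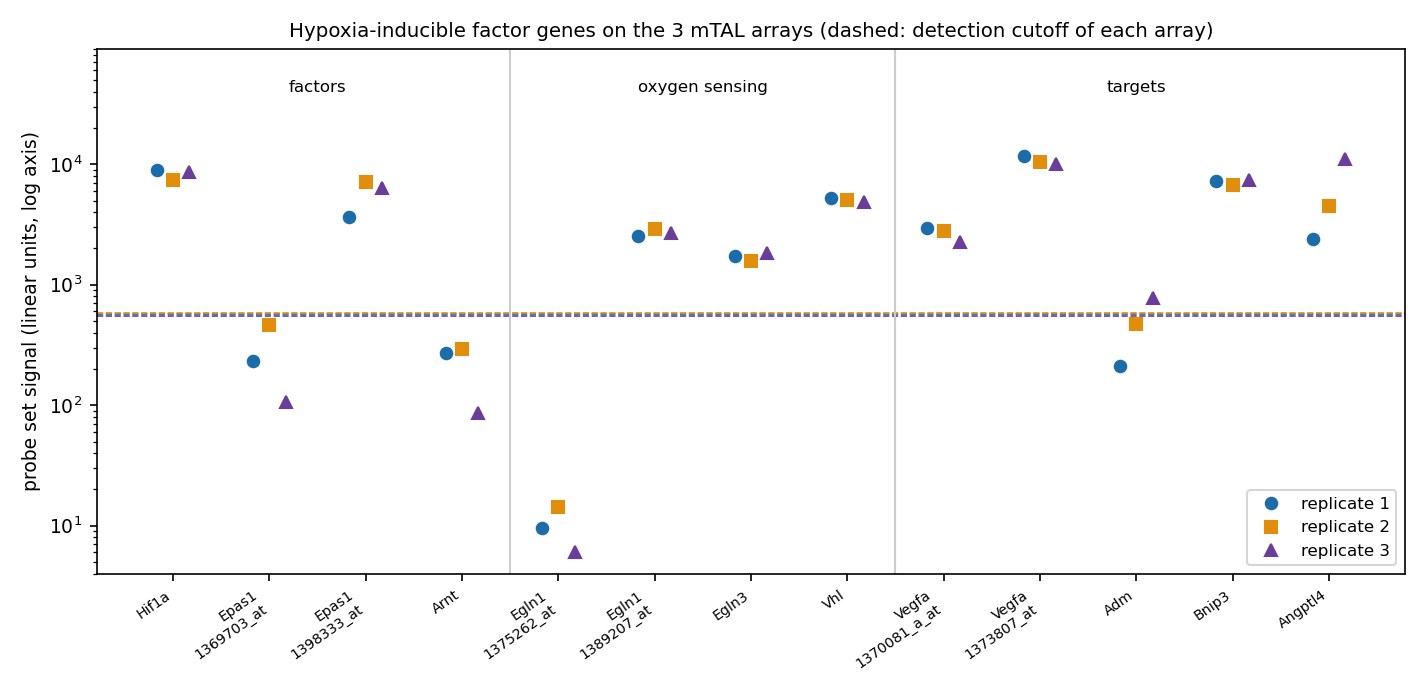
Signal of each of the 13 probe sets on each array (linear units on a log axis), with the genes ordered as factors, oxygen-sensing genes and targets and the cutoff of each array as a dashed line. The points of Hif1a, Egln3, Vhl and Bnip3 lie close together above the cutoff, those of Angptl4 run from 2381 on replicate 1 to 11071 on replicate 3, and 4 probe sets have points below it.

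Among the factors, Hif1a (probe set 1387076_at) had signals of 8887, 7445 and 8549 on replicates 1, 2 and 3. All 3 arrays were close to each other and far above the cutoff. The mean of 8294 ± 754 was 3.87 log2 units above it (SE 0.12, adjusted p = 0.00027 by limma), or 14.6-fold. Of the 768 probe sets with a mean within 0.5 log2 units of that of Hif1a, 53.1% had a smaller SD, so its spread was ordinary for its level.

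Epas1, the alpha subunit known from endothelium and interstitial cells of the kidney, was read by a pair of probe sets that disagreed. Probe set 1398333_at had signals of 3636, 7143 and 6324 on replicates 1, 2 and 3. It was 3.27 log2 units above the cutoff (SE 0.25, adjusted p = 0.00114 by limma). Replicate 1 stood below the other arrays, and the highest signal was 1.96-fold the lowest. The endothelial markers had the same order of arrays, with summed signals of 16629, 28555 and 26024, and so had 4 thin limb markers, with 26926, 71214 and 40728. The part of either in the Epas1 signal was not tested. Probe set 1369703_at, annotated with a RefSeq transcript of the same gene, had signals of 232, 462 and 107. All 3 lay below the cutoff, and it was not called (-1.33, adjusted p = 1). Replicate 3 was the lowest here, whereas replicate 1 was the lowest on the other probe set, so the probe sets differed in the order of the arrays as well as in the call.

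Arnt, the beta subunit, had a single probe set (1369244_at) with signals of 273, 296 and 87.0 on replicates 1, 2 and 3. All arrays lay below the cutoff, replicate 3 farthest. The mean was 219 ± 115, with a log2 difference from the cutoff of -1.57 (SE 0.43, adjusted p = 1 by limma). A transcript under the cutoff can still be present. At a lower cutoff, the highest signal of the control transcript TrpnX, Arnt was called (1.92 log2 units above, adjusted p = 0.00159). Of all probe sets 74.2% were called there. Its paralog Arnt2, which can also pair with alpha subunits, had signals of 6630, 6956 and 6198 and was called by 1 of its 2 probe sets (3.54 log2 units above the cutoff, adjusted p = 0.000266).

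The called probe sets of the oxygen-sensing genes varied little between arrays. Vhl (1368076_at) had signals of 5283, 5075 and 4823, with the highest only 1.10-fold the lowest. It was 3.16 log2 units above the cutoff (SE 0.10, adjusted p = 0.000273 by limma). Its SD of 0.07 log2 units was above that of just 16.3% of the 1366 probe sets of like level. Egln3, the prolyl hydroxylase whose transcript is itself a target of the factors, had signals of 1737, 1576 and 1832 (1368174_at). All were above the cutoff, by a mean of 1.59 log2 units (SE 0.12, adjusted p = 0.00109), the smallest margin among the called probe sets.

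Egln1, the hydroxylase regarded as the main oxygen sensor of most cells, again had probe sets that disagreed. Probe set 1389207_at had signals of 2521, 2887 and 2688, an SD of 0.10 log2 units and a margin of 2.25 over the cutoff (SE 0.11, adjusted p = 0.000433). Probe set 1375262_at had signals of 9.61, 14.4 and 6.10 on the same arrays, all far below the cutoff (log2 difference -5.91, adjusted p = 1). The latter was also the only one of the 13 that was not called at the TrpnX cutoff, where 74.2% of all probe sets were. The call of a gene therefore depended on which probe set was read for Epas1 and Egln1, and the probe sets of Vegfa were both called.

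Of the targets, Vegfa encodes the endothelial growth factor that the thick limb is known to make. Probe set 1373807_at had signals of 11617, 10436 and 10092 and stood 4.24 log2 units above the cutoff (SE 0.11, adjusted p = 0.000265 by limma), the widest margin of the 13. Probe set 1370081_a_at had signals of 2970, 2786 and 2249, with a margin of 2.22 (SE 0.13, adjusted p = 0.000558). On both, replicate 1 was the highest and replicate 3 the lowest. With each array centred on its median probe set, replicate 3 minus replicate 1 was -0.25 and -0.45 log2 units. No change is drawn from this order, since each array is 1 sample. With the 99th percentile as the cutoff, 1373807_at was the only member probe set still called, and of all probe sets 2.83% were.

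Bnip3, a mitochondrial protein that marks mitochondria for removal by autophagy, had signals of 7302, 6768 and 7418 (1387805_at). The arrays lay within 1.10-fold of each other. Its margin was 3.66 log2 units (SE 0.11, adjusted p = 0.000269), and 19.2% of the 910 probe sets of like level had a smaller SD.

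Angptl4, a secreted inhibitor of lipoprotein lipase that is also a target of fatty acid-sensing PPAR receptors, varied more than any other called gene of the list. Its signals were 2381, 4523 and 11071 on replicates 1, 2 and 3 (1388924_at). All arrays were above the cutoff, but the highest was 4.65-fold the lowest. It was called with a margin of 3.12 log2 units (SE 0.52, adjusted p = 0.0092 by limma), and without replicate 2 it was not (adjusted p = 0.0531, margin 3.19). Without replicate 1 or replicate 3 it kept its call, with adjusted p = 0.0126 and 0.0165. Of 1396 probe sets of like level, 99.9% had a smaller SD.

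Adm, the gene of the vasodilator peptide adrenomedullin, had signals of 212, 474 and 772 on replicates 1, 2 and 3 (1387219_at). Only replicate 3 was above its cutoff. The mean of 486 ± 280 gave a log2 difference from the cutoff of -0.41 (SE 0.44, adjusted p = 1 by limma). The level lay near the cutoff. With the 90th percentile the difference was 0.99 (adjusted p = 0.0687), and with Myh1, a muscle gene of very high signal here, left out of the other-tissue genes it was 0.13 (adjusted p = 0.772). By the highest probe set, adjusted over genes, 9 members were called at the 90th percentile, where 60.8% of all genes were. Arnt lay below that cutoff (-0.16), so Adm was among the 9. At the TrpnX cutoff Adm was called (3.08, adjusted p = 8.0e-06), where 74.2% of all probe sets were.

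**Figure D2:**
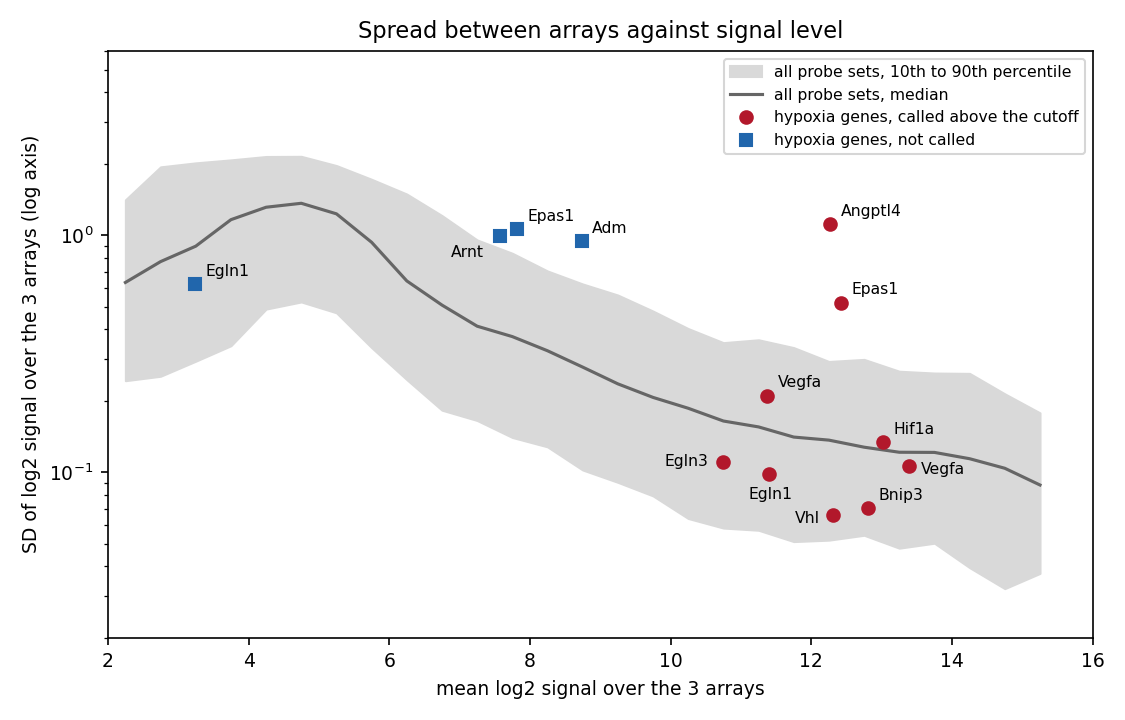
SD of the log2 signal over the 3 arrays (log axis) against the mean log2 signal, for the 13 hypoxia probe sets and, as a band, the 10th to 90th percentile of all probe sets with 1 gene. Angptl4 (SD 1.11), both probe sets of Epas1 (0.52 for the called and 1.06 for the uncalled), Arnt (0.99) and Adm (0.94) lie above the band, while Vhl (0.07), Bnip3 (0.07) and the called Egln1 probe set (0.10) lie under the median line.

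The members fell into steady and variable ones. Of the 13 probe sets 6 had an SD under 0.2 log2 units, namely those of Hif1a, Vhl, Egln3 and Bnip3 and the higher ones of Egln1 and Vegfa. Another 6 had an SD over 0.4, both of Epas1, the lower one of Egln1, and those of Arnt, Adm and Angptl4. The median SD was 0.11 for the 9 called probe sets and 0.16 for the 9315 probe sets with a mean above the cutoff. These groups were not matched for level. Over all probe sets the median SD fell from 0.24 at a log2 level of 9.25 to 0.12 at 13.25. Of probe sets of like level, 27.3% had a smaller SD than the higher Egln1 probe set and 27.8% than Egln3. For the higher and lower Vegfa probe sets it was 41.3% and 70.2%. Among the variable probe sets, those of Arnt and Adm and the lower ones of Epas1 and Egln1 had signals near or under the cutoff. Set against probe sets of like level, 92.9% had a smaller SD than Arnt, 96.7% than Adm, 95.5% than the lower and 97.7% than the higher Epas1 probe set. The lower Egln1 probe set was ordinary for its level, with 33.0%.

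The direction of the variation differed between members. With arrays centred on the median probe set, replicate 3 minus replicate 1 was 2.17 log2 units for Angptl4 and 1.81 for Adm. The absolute difference was smaller than that of Angptl4 in 99.6% of the 9315 probe sets with a mean above the cutoff. It was 0.75 for the called Epas1 probe set and within 0.5 of 0 for the other 7 called probe sets, from -0.45 for Vegfa to 0.04 for Egln1. For Arnt and the lower Epas1 probe set, both below the cutoff, it was -1.70 and -1.17. The same difference had a median of 3.65 over 19 proximal tubule markers, 1.57 over 12 principal cell markers, 1.53 over 13 fibroblast and mural cell markers and 0.82 over 11 endothelial markers. It was 0.85 over 19 immediate early and heat shock genes and -0.19 over 14 thick limb markers. The signals of Angptl4 and Adm were lowest on replicate 1 and highest on replicate 3. So were the summed signals of the proximal tubule, principal cell, fibroblast and mural cell, leukocyte, red blood cell and early gene lists. The leukocyte sum (26586, 31383 and 33265) was mostly that of Cd74 (23219, 25140 and 27671), and 2 of 16 leukocyte markers were detected. The part of the cells of these lists in the signals of Angptl4 and Adm was not tested.

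**Figure D3:**
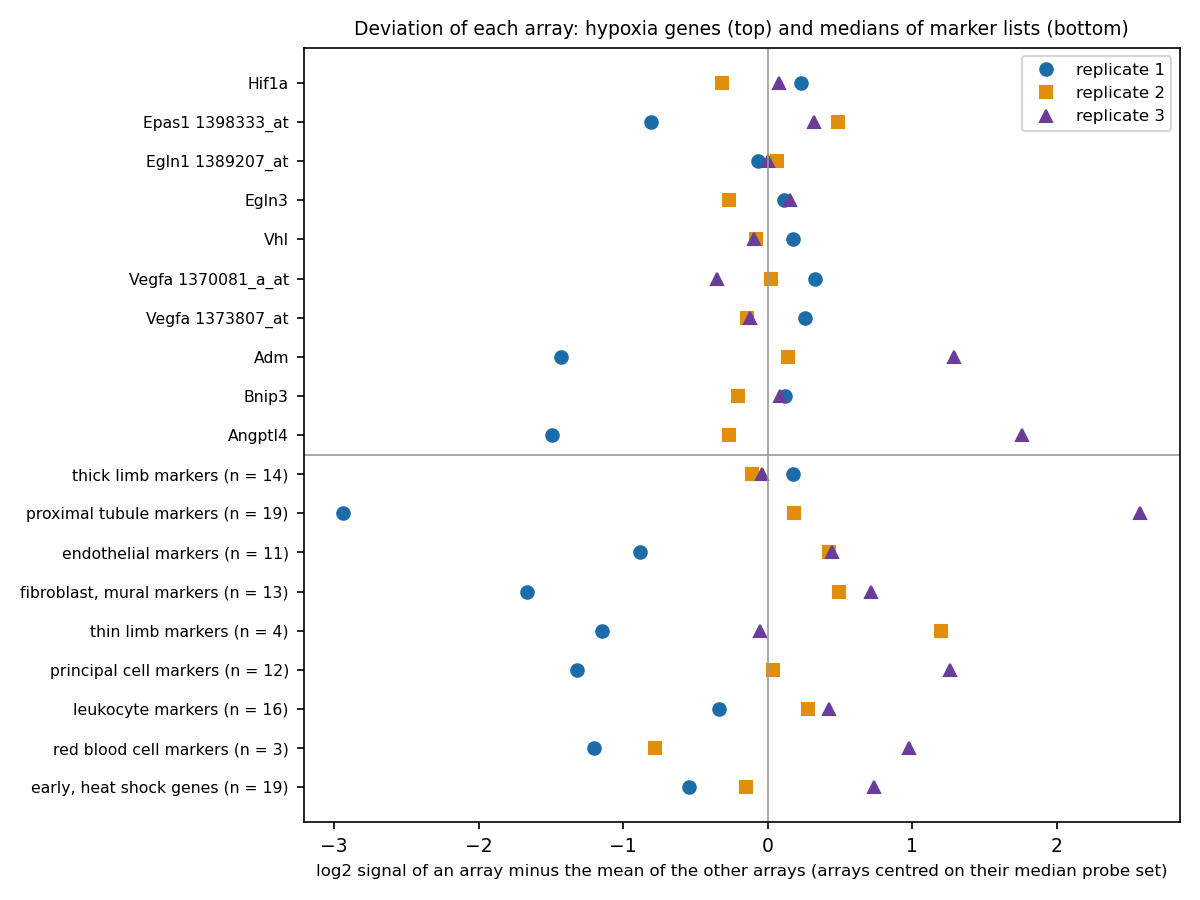
Deviation of each array (log2 signal less the mean of the other arrays, after centring on the median probe set) for the called hypoxia probe sets and Adm (top) and as the median of each marker list (bottom). Angptl4 (-1.49, -0.27 and 1.76 on replicates 1, 2 and 3) and Adm (-1.43, 0.14 and 1.29) lie below 0 on replicate 1 and above it on replicate 3. The medians of all lists but the thick limb and thin limb ones do so too, as for proximal tubule markers (-2.94, 0.18 and 2.58). On replicate 2 Angptl4 and the proximal tubule median lie on opposite sides of 0. Vhl, Bnip3 and Egln1 stay near 0.

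The factors bind the core letters ACGTG or GCGTG, the centre of the hypoxia response element. The sequences around these letters are shown to place them in the members' own promoters, from RefSeq on the GRCr8 build, where 250 bases before and 50 after a transcript start were searched on both strands. Of 11 promoters of the 10 genes (Vegfa has a pair), 5 held at least 1 match, or 45.5%, against 56.4% of 13192 promoters of all genes on the array and 41.6% of all 33469 promoters in the table. Only matches before the start are printed, with 20 bases on either side where available, 5′ to 3′ on the gene's strand, and the capitals mark the matches. The letters CACGTG hold ACGTG on both strands and count as a pair of overlapping matches. CACGT and CACGC are ACGTG and GCGTG on the opposite strand.
Bnip3, chr1:203155028-203155090, minus strand: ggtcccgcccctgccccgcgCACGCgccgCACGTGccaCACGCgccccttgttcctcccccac
Hif1a, chr6:98359649-98359694, plus strand: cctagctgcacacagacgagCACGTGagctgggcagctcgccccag
Hif1a, chr6:98359714-98359758, plus strand: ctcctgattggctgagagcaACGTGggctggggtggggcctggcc
Angptl4, chr7:15258887-15258931, minus strand: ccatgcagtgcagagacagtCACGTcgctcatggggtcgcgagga
Egln1, chr19:69804713-69804757, minus strand: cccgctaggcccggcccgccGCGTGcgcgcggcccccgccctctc
Arnt, chr2:185686641-185686685, plus strand: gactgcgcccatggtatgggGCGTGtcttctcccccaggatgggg

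Bnip3 had 4 matches, between 108 and 90 bases before its start, and Hif1a had 3. Angptl4 and Arnt had 1 each, at 230 and 42 bases before the start. Egln1 had 1 before the start, at 56 bases, and 1 after it. The windows of Epas1, Egln3, Vhl, Vegfa and Adm held none, which says only that these letters are not in this window. Genes with and without a match stood on both sides of the call. Bnip3 and Angptl4 have matches, and the spread of their signals was 0.07 and 1.11 log2 units. Of the 85 promoters found for 77 of the other pathway genes listed below, 62 held a match, or 72.9%. A match is a description of the letters and no sign of binding.

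The wider pathway was described with a list of 99 other measured genes, of 106 listed, in 8 classes. By the same test 54 of them were detected, or 54.5%, against 46.0% of all genes. The median of log2 signal minus cutoff was 1.43 over the 99 and 0.23 over all genes, each gene by its highest probe set. Classes differed in their counts, from 6 of 8 for factor partners to 1 of 9 for genes of ligand partners. Of the 48 genes with more than 1 probe set, 17 had both called and uncalled ones, as Epas1 and Egln1 did. The same share was not taken over the array's 4525 genes with several probe sets, so these counts describe the lists alone.

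**Figure D4:**
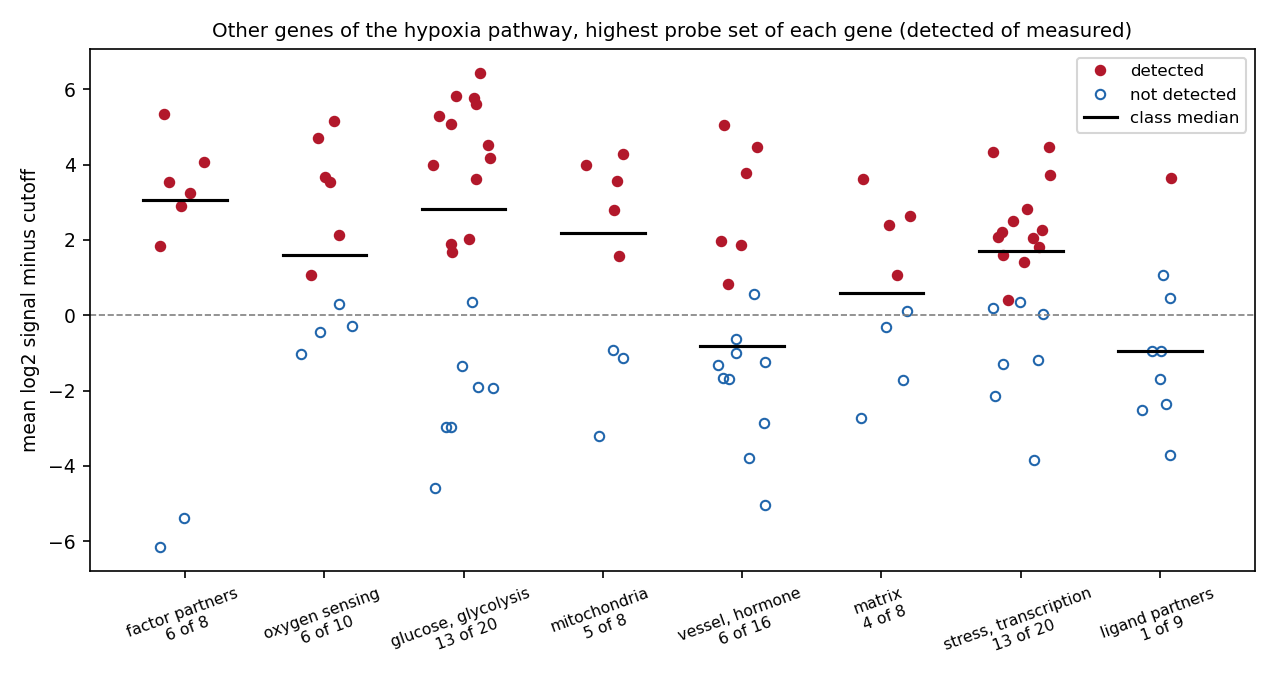
Mean log2 signal minus cutoff for the highest probe set of each of the 99 other pathway genes, by class, with filled points for detected genes, open points for the others and a bar at the class median. The medians of factor partners (3.07) and glucose and glycolysis genes (2.82) lie well above the cutoff, and those of vessel and hormone targets (-0.82) and ligand partners (-0.96) lie below it.

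Of 8 factor partners 6 were detected. Highest were the chaperone Hsp90ab1 (22966 ± 1023), which holds the alpha subunit, Cited2 (9705 ± 1598), which competes with it for coactivators, and Arnt2 (6594 ± 380). Hif3a, an alpha subunit with forms that oppose the others, had the lowest signals of the class, 10.2, 6.74 and 7.26 on replicates 1, 2 and 3 (adjusted p = 1). Of 10 further genes of oxygen sensing and degradation 6 were detected. Rack1 (20206 ± 1875) is a scaffold that binds the HIF-1 alpha subunit. Elob (14968 ± 1561) and Eloc (7202 ± 378) encode the elongins that join Vhl to its ubiquitin ligase. The lowest was the membrane hydroxylase P4htm (280 ± 41.8). The remaining Egln gene, Egln2, had signals of 2523, 2500 and 2461 and was detected (adjusted p = 0.000416). It was named after its values were seen, and with it all 3 Egln genes had a called probe set.

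Of 20 glucose and glycolysis targets 13 were detected, with Aldoa (49165 ± 3933), Pgk1 (31845 ± 592) and Eno1 (31041 ± 965) highest. These glycolytic enzymes are made in most cells at any oxygen level. The lowest was Aldoc (25.7 ± 11.3, adjusted p = 1), the aldolase known from brain. Of 8 mitochondrial targets 5 were detected, led by Mxi1 (11038 ± 1462), an antagonist of Myc, Higd1a (8984 ± 117), a small mitochondrial membrane protein, and Bnip3l (6782 ± 393), the close relative of Bnip3 in mitochondrial removal. Fam162a (76.8 ± 61.2) was lowest.

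Of 16 vessel and hormone targets 6 were detected. Igfbp1, a secreted binding protein for insulin-like growth factors, had signals of 10822, 25265 and 24729 on replicates 1, 2 and 3. Replicate 1 was the lowest, as it was for the called Epas1 probe set. It was also the lowest for the summed signal of every cell type marker list but the thick limb one. The part of those other cells in the Igfbp1 signal was not tested. Mif (12500 ± 1236) and the chemokine Cxcl12 (7852 ± 449) followed. Epo, the erythropoietin gene that interstitial cells of the kidney express, had the lowest signals, 42.1, 40.6 and 3.10 (adjusted p = 1). Flt1, Kdr and Tek of this class also stood among the endothelial markers. Over the class, replicate 3 minus replicate 1 had a median of 0.97 log2 units, and 13 of 16 genes were higher on replicate 3. Over all genes the median was -0.04, and 6481 of 14217 were higher on replicate 3. Of the 16 genes of the class 10 were not detected, and 9 lay below the cutoff on every array.

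Of 8 matrix targets 4 were detected. They included the lysyl hydroxylase Plod2 (7049 ± 1008), Col4a1 (3769 ± 1528) and Col4a2 (3114 ± 992), the chains of the common basement membrane collagen. Col4a1 had signals of 2165, 5208 and 3934 on replicates 1, 2 and 3, and Col4a2 had 2048, 4010 and 3283. The summed signals of the endothelial and thin limb markers had the same order of arrays. The part of those cells in the collagen signals was not tested. Loxl2 (88.2 ± 24.3) was lowest. Of 20 stress and transcription targets 13 were detected, led by the transferrin receptor Tfrc (12786 ± 3464), the autophagy receptor Sqstm1 (11627 ± 1656) and Ndrg1 (7638 ± 1939), a gene known for its response to hypoxia. The lowest was Car9 (64.7 ± 76.7, adjusted p = 1), the carbonic anhydrase used as a hypoxia marker in tumours, with signals of 25.1, 153 and 15.9. Among 9 partners of the secreted products, only the Vegf co-receptor Nrp1 (7185 ± 888, adjusted p = 0.00031) was detected. Without replicate 1, 2 of the 9 were, the other being Ramp2, named after its values were seen. Ramp1, a subunit of calcitonin family receptors, had the lowest signal (57.6 ± 41.6). Of the 54 detected pathway genes 33 had an SD under 0.2 log2 units and 7 one over 0.4.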

How the data were processed

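Total RNA of 3 mTAL samples was labelled with biotin for Affymetrix arrays, per the labels' protocols. The authors deposited 1 linear intensity per probe set and array; the summary method, software and normalization are not given in the sources used here. After trimming 2% at each end the mean was 1000.4, 1000.3 and 1000.3, so no scaling was added. Log2 was taken without a pseudocount. Probe sets were named by the platform annotation (20826 with 1 gene, 436 with several, 9780 with none, 57 controls of 31099); 20758 identifiers were found in RefSeq GRCr8, with 0 symbols changed. Samples formed 1 group, with replicate numbers from the titles.

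The log2 difference of a signal from its array's cutoff was tested with limma 3.58.1 in R 4.3.3 (lmFit, eBayes, one-sided, Benjamini-Hochberg threshold 0.05), after tests on simulated data. A gene was detected when any probe set was called. The highest probe set stood for a gene's level. The members and all gene lists were chosen with earlier results of these data known. All members are named, and of each pathway class the 3 detected genes of highest and the gene of lowest signal. Genes of other-tissue, marker and pathway lists without a match are not analysed here. Protein sequences were not used here. Alternatives covered the cutoff, scaling, pseudocount, low-value filter, adjustment, leaving out arrays and, added after seeing the data, a variance trend.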

Additional observations from a re-analysis of the deposited data

How the results depend on the processing

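The counts of called members (9 probe sets, 8 genes) and of detected pathway genes (54) kept within 1.5-fold under quantile normalization, a common 75th percentile, a pseudocount of 16, adjustment over all probe sets, a variance trend, 1 probe set per gene, the 90th percentile and the list without Myh1. At the 90th percentile 66 pathway genes were detected, where 60.3% of all genes and 53.2% of all probe sets were called. Without Myh1 it was 59 pathway genes, where 52.5% of all genes and 44.2% of all probe sets were called. Leaving out 1 array gave 8 to 9 member probe sets, 7 to 8 member genes and 50 to 54 pathway genes. The share of all probe sets called was then 33.8% to 34.1%, against 37.7% with all arrays. That of all genes was 41.6% to 42.6%, against 46.0%. The cutoff mattered most. At the 99th percentile, which lies between Cela1 and Myh1, 1 member probe set, 1 member gene and 12 pathway genes were called; by the highest probe set, adjusted over genes, 2 member genes were. Of all features, 2.83% of probe sets, 3.92% of genes and, by the highest probe set, 4.87% of genes were called there. Log2 differences turned to -0.87 for Egln1, -1.53 for Egln3, -0.90 for the lower Vegfa probe set, -0.0020 for Angptl4, -0.48 for Col4a1 and -0.72 for Col4a2. At the TrpnX cutoff 88 of 99 pathway genes were called, against 77.8% of all genes, and differences turned to 2.15 for the lower Epas1 probe set, 1.92 for Arnt, 3.08 for Adm, 2.46 for P4htm and 0.77 for Loxl2. The number of genes whose probe sets disagreed, 2, was 1 at either of these cutoffs and 0 after the low-value filter, which left out the uncalled probe sets of Epas1 and Egln1. No paired analysis was possible because the study has 1 group. The planned change to another list of other-tissue genes was not run, since that list is the one used throughout.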

Other observations

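Some further genes of the pathway list, chosen after their values were seen, differed widely between arrays. Lpl, the lipoprotein lipase that the Angptl4 product inhibits, had signals of 6366, 484 and 547 on replicates 1, 2 and 3. Only replicate 1 was above its cutoff, and Lpl was not called (limma adjusted p = 0.378). Ak4, a mitochondrial adenylate kinase, had signals of 20.6, 160 and 1057 and was not called (log2 difference from the cutoff -1.90). Pfkfb3, which makes an activator of glycolysis, had signals of 1565, 2030 and 3874 and was called (adjusted p = 0.00878). Each array is a single sample, so these differences have no test.

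Among receptor genes for the secreted members, some were called, and 46.0% of all genes were. For adrenomedullin, Calcrl had signals of 82.5, 155 and 107, and Ramp2 had 480, 1064 and 908, with limma adjusted p = 1 and 0.25. For the Vegfa product, Kdr had signals of 1315, 2372 and 2763 and was called (adjusted p = 0.00699), while Flt1 had 212, 524 and 433 and was not. Of the co-receptors, Nrp1 had 7445, 6195 and 7914 and was called (adjusted p = 0.00031), and Nrp2 had 189, 263 and 524 and was not. Kdr and Flt1 are endothelial markers, and both were lowest on replicate 1, as the summed signal of that list was.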
